A study of Mus musculus with 4 samples.

Results

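Integrins are the main adhesion receptors of leukocytes, and 8 subunit genes were taken from the gene rows of a single-cell RNA series of blood, by name: the β chains Itgb1, Itgb2 and Itgb7 and the α chains Itga4, Itgal, Itgam, Itgax and Itga6. Rows for 7 of the 8 were analysed, of 16152 genes in all, and Itgam is not analysed here. Blood was drawn from wild-type C57BL/6J mice aged 6 to 8 weeks. In 3 libraries the mice had acute pancreatitis, brought on by 7 intraperitoneal injections of cerulein, and were sampled at 12, 24 and 96 h, and 1 library came from control mice at 0 h. The labels call 12 and 24 h the initial phase and 96 h the recovery phase, while the design text gives 168 h for the last time. Mononuclear cells were separated on a Ficoll gradient and sequenced by the 10x 5′ method, which counts unique molecular identifiers (UMIs) per gene and cell. Each time had 1 library, so no difference between times has a replicate, no test was possible, and how many mice went into a library is not given in the sources used here.

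An integrin is a pair of 1 α and 1 β chain that spans the membrane, binds ligands on other cells or in the matrix, and is switched between a bent, inactive form and an extended, active form from inside the cell. On leukocytes the β2 chain pairs with αL to form LFA-1, with αM to form Mac-1, with αX to form the receptor CD11c/CD18 and with αD, and these bind ICAMs and complement fragments. The α4 chain pairs with β1 to bind VCAM and fibronectin, and with β7 to bind MAdCAM in gut venules, while α6 with β1 binds laminin. Rolling leukocytes use these receptors to stop on inflamed endothelium and to leave the blood. Whether chains meet as a pair on the cell surface is not read by RNA.

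The libraries held 11663 to 14569 cells, with median depths of 3571 to 4861.5 UMIs per cell. Of the 16152 gene names 12518 match a mouse symbol, but 1691 begin with AABR07 and 28 with RT1-, the prefix that rats use for their histocompatibility genes. The mouse prefix H2- is carried by 0 names. The RT1- and AABR07 names are of rat type, although the labels give mouse and the processing notes mm10. Which genome was used is not known here. All 7 members match a mouse symbol. The 24 h barcode list is the same 11663 barcodes as at 12 h, for 12588 matrix columns, and the control list has 4340 barcodes for 14569 columns. Cells were therefore taken from the matrix columns, and 0 cells had the same counts in different libraries. A stricter cell filter, with 500 genes or more and mitochondrial RNA at 5% of UMIs or less, leaves 1084 to 1721 cells in the pancreatitis libraries and 572 in the control one.

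Cells were sorted into monocytes, neutrophils, T, NK and B cells by counting lineage marker genes, none of them an integrin. Between 85.8% and 90.1% of the kept cells of a library passed 1 gate. The gates gave 3223, 3141, 4195 and 1794 monocytes at 0 (control), 12, 24 and 96 h, 2968, 1909, 2215 and 5388 T cells, 396, 773, 439 and 543 NK cells, and 3159, 3148, 2681 and 3927 B cells. All 9 monocyte, 7 T, 11 NK and 7 B markers were highest in their own class, as were 10 of the 11 neutrophil markers. The gates themselves counted 8 of these monocyte markers, 9 of the neutrophil markers and all of the T, NK and B markers. This order was therefore largely set by the gates and is no separate check of the classes. Neutrophils, most of which a Ficoll gradient removes, numbered 17, 49, 107 and 9, so that their levels are given below without a ratio to the control. Levels are given as CPM, a gene's UMIs for every 1000000 UMIs summed over the class in that library, and a level in a class cannot tell fewer expressing cells from less RNA per cell. Intervals are exact at 95% and cover counting error only, not the spread between mice. Those of levels, ratios and shares of UMIs treat UMIs as independent and also leave out the spread between cells. In control T cells, for example, 1710 UMIs of Itgb1 lay in 619 of 2968 cells. Because UMI capture differs between genes, levels were compared between classes and times and not from one gene to another.

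Free RNA sets a floor under these levels. The monocyte gene Lyz2, which lymphocytes should lack, stood in T cells at 1.53%, 1.26%, 1.56% and 0.875% of its monocyte level at 0 (control), 12, 24 and 96 h, and in B cells at 2.99%, 2.44%, 2.97% and 1.41%. Itgb7 in NK cells stood at 2.72%, 1.64%, 2.43% and 2.15% of its monocyte level at 0 (control), 12, 24 and 96 h. Lyz2 in the same cells stood at 1.68%, 1.70%, 1.74% and 0.965%. Much of this Itgb7 may thus be background, and how much was not tested. The S100a8 transcript of neutrophils reached 361, 214 and 18.7 CPM in T cells at 12, 24 and 96 h, against 4.81 CPM in control T cells, and its part in the ratios was not tested. Itgax, at 3.36% to 7.39% of its monocyte level in T cells and 3.43% to 7.48% in B cells, lay above Lyz2 by a smaller margin than the other members of those cells.

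A ratio of at least 1.5 in either direction was used as a mark of size, for members with at least 50 UMIs over both libraries compared. Of 78 ratios of a member in a class at a time, 11 passed it, 5 higher and 6 lower in pancreatitis. Among monocytes 2 of 7 members passed at 12 h, 1 at 24 h and 3 at 96 h, while 18.5%, 20.5% and 9.63% of all genes did. Among T cells the numbers were 1, 0 and 1 of 7, beside 12%, 11.5% and 6.36% of all genes. NK cells had 0, 1 and 1 of 5 measured members, beside 10.4%, 11.6% and 8.44%, and B cells 1, 0 and 0 of 7, beside 10%, 8.33% and 6.57%. The count was highest in monocytes at 96 h, and with 5 to 7 members such shares are too coarse to be called particular to them. The median log2 ratio of the members in monocytes was -0.21, -0.35 and -0.30 at 12, 24 and 96 h, against 0.05, -0.12 and -0.03 over all genes. In T cells it was 0.50, -0.01 and 0.00, against 0.10, -0.12 and -0.03. All ratios share the 1 control library, so a deviation of that library would appear at every time.

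**Figure D1:**
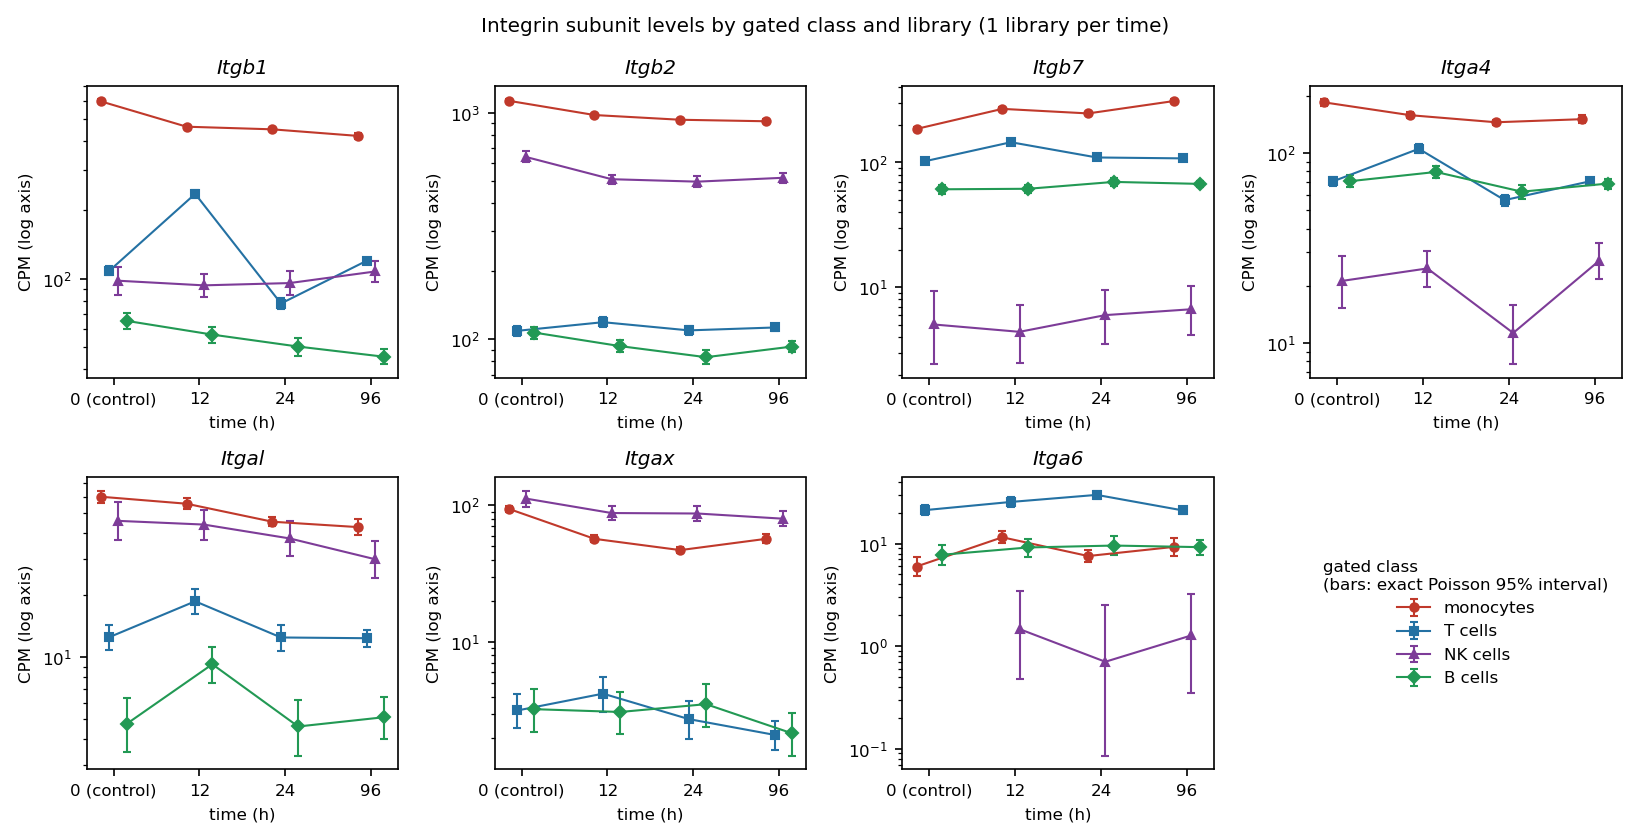
Level of each member in CPM (log axis) against time (points evenly spaced), for gated monocytes, T, NK and B cells, with exact Poisson 95% intervals and 1 library per time. Of these 4 classes, with the cells kept here, monocytes hold the highest level of Itgb1, Itgb2, Itgb7 and Itga4 at every time. Itgb1 in T cells peaks at 12 h, 236 CPM against 108 CPM in control T cells. Itga6 in control NK cells had 0 UMIs and is not drawn.

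Itgb2, the β chain common to the leukocyte integrins, had the narrowest span of ratios among the members, 0.778 to 1.09 over its 12 comparisons. The stricter cell filter, which keeps 808 monocytes at 12 h and 321 in the control, left that span, with 741 CPM in monocytes at 12 h, against 1411 CPM in the control, 0.525 times. With the stricter gate monocytes had 1219, 1166 and 1128 CPM at 12, 24 and 96 h, against 1221 CPM in the control. With the cells kept here, monocytes carried 1127, 975, 930 and 916 CPM at 0 (control), 12, 24 and 96 h, NK cells 638, 509, 496 and 516 CPM, T cells 109, 119, 110 and 113 CPM, and B cells 107, 93.4, 83.5 and 93.0 CPM. The ranges over the 4 libraries did not overlap between any neighbours in this order of classes. In NK cells every pancreatitis library was lower than the control one, at 0.798 (0.741 to 0.858), 0.778 (0.721 to 0.840) and 0.809 (0.751 to 0.872) times its level at 12, 24 and 96 h. T cells lay close to the control, at 1.09 (1.02 to 1.17) at 12 h and 1.03 (0.977 to 1.10) at 96 h. A UMI of Itgb2 was found in 97.0% to 98.7% of monocytes and in 23.5% to 27.9% of B cells. After thinning every cell to 2000 UMIs these shares were 78.0% to 86.4% of monocytes and 15.1% to 17.9% of B cells.

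Of the α chains that pair with β2, Itgal, which makes LFA-1, was highest in monocytes and NK cells. It stood at 60.1, 55.6, 45.5 and 42.8 CPM in monocytes at 0 (control), 12, 24 and 96 h and at 45.9, 44.0, 37.7 and 29.9 CPM in NK cells, with ranges that overlap. With the stricter gate the monocyte ratio turned to 1.21 at 12 h and 1.06 at 96 h, in place of 0.925 and 0.712. T cells had 12.5, 18.7, 12.5 and 12.4 CPM, and B cells 4.75, 9.26, 4.62 and 5.12 CPM. The 12 h library was thus the highest in T and B cells, whereas in NK cells the control was. In B cells at 12 h Itgal was 1.95 times the control (1.37 to 2.81), from 102 UMIs at 12 h and 47 in control cells, and in T cells 1.49 times (1.23 to 1.82). In NK cells at 96 h it was 0.651 times the control (0.483 to 0.878), from 94 UMIs at 96 h and 91 in control cells.

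Itgax, the CD11c chain that is widely used as a mark of dendritic cells and of patrolling monocytes, had the lowest ratios in monocytes of any member. Its level in them was 94.2, 56.9, 47.0 and 56.9 CPM at 0 (control), 12, 24 and 96 h. The ratios to control monocytes were 0.603 (0.556 to 0.654), 0.499 (0.463 to 0.538) and 0.603 (0.549 to 0.663), all past the 1.5-fold mark. With the stricter gate, which keeps 777 and 367 monocytes at 12 and 96 h and 649 in the control, the ratios at 12 and 96 h were 0.776 and 0.772, short of that mark, and with each cell weighted alike they were 0.726 and 0.707. The stricter cell filter moved the 12 h ratio the other way, to 0.326, with 43.8 CPM at 12 h and 134 CPM in the control. NK cells held 112, 87.8, 87.1 and 79.8 CPM, a range that overlaps that of monocytes, and were likewise lower than control at each time, at 0.784, 0.778 and 0.713 times its level. T and B cells had 2.10 to 4.20 CPM. Itgax in T cells at 96 h, 0.663 times the control (0.454 to 0.974), rests on 69 UMIs at 96 h and 50 in control cells and missed the mark with no cell filter (0.678) and with median-of-ratios scaling (0.681).

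Itgad, the αD chain and a partner of β2 outside the 8 members, was mainly an NK transcript. It had 140, 148, 108 and 133 CPM in NK cells at 0 (control), 12, 24 and 96 h, and 19.8 to 25.6 CPM in monocytes. Of the UMIs of Itgal, Itgax and Itgad together, Itgad held 46.9%, 52.8%, 46.4% and 54.7% in NK cells. In T cells Itgal held 73.6% to 77.0% of them, and in monocytes Itgax held 41.2%, 40.2% and 47.6% at 12, 24 and 96 h, against 53.5% in control monocytes.

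**Figure D2:**
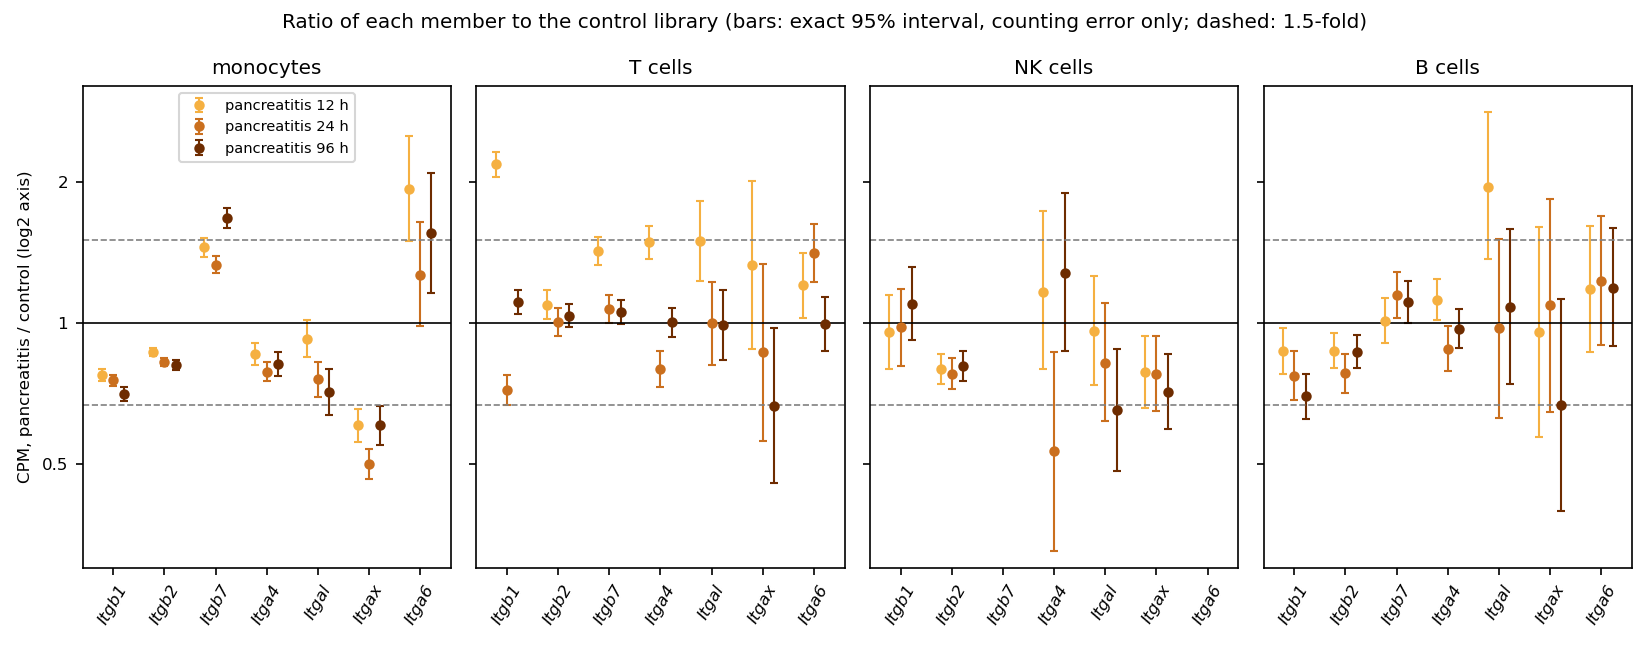
CPM in each pancreatitis library divided by CPM in the control library (log2 axis), by class and member, with exact 95% intervals that cover counting error only; dashed lines mark 1.5-fold. Itgax lies lowest in monocytes (0.499 at 24 h), and Itgb1 in T cells at 12 h lies highest (2.18), with Itgb7 and Itga6 not drawn for NK cells, where they had too few UMIs.

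Itgb1, the β chain of the VLA receptors for matrix and VCAM, was lower than control in monocytes and B cells and higher in T cells at 12 h. Monocytes had 600, 464, 452 and 423 CPM at 0 (control), 12, 24 and 96 h, and ratios of 0.774 (0.751 to 0.797), 0.753 (0.734 to 0.774) and 0.705 (0.680 to 0.730), and under the stricter cell filter 0.507 at 12 h. With the stricter gate they lay nearer the control, at 589, 572 and 547 CPM at 12, 24 and 96 h, against 637 CPM. B cells had 65.2, 56.7, 50.3 and 45.4 CPM, with a ratio of 0.696 (0.624 to 0.776) at 96 h. They were lower than control at each time, but with the stricter gate the 12 h level was 57.4 CPM, against 52.3 CPM in the control, 1.10 times. T cells had 108, 236, 77.7 and 120 CPM, so the 12 h library stood above and the 24 h library below the rest. The ratio at 12 h was 2.18 (2.05 to 2.31) and at 24 h 0.718 (0.666 to 0.774). Both depended on the cell filter. Under the stricter one, with 286, 136 and 637 T cells at 12, 24 and 96 h and 60 in the control, T cells had 196, 164 and 101 CPM, against 157 CPM in the control. The ratios were then 1.25 (0.910 to 1.75), 1.04 (0.743 to 1.497) and 0.642 (0.469 to 0.898), so that the call at 12 h was lost, the 24 h library no longer lay below the control and the 96 h library did. NK cells stayed between 93.4 and 107 CPM, and each of their 3 intervals included 1. The neighbouring classes T and NK overlap in range, whereas monocytes lay above and B cells below both, though B cells overlapped them under the stricter cell filter.

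Itga4, the α chain that joins β1 or β7, was also highest at 12 h and lowest at 24 h in T cells. T cells had 70.8, 105, 56.4 and 70.9 CPM at 0 (control), 12, 24 and 96 h, giving 1.48 (1.37 to 1.61) at 12 h and 0.797 (0.728 to 0.872) at 24 h. Under the stricter cell filter they had 132, 81.1 and 78.8 CPM at 12, 24 and 96 h, against 104 CPM in the control, and were lowest at 96 h. Monocytes carried 184, 158, 145 and 150 CPM, lower at each pancreatitis time. At 12 h their ratio of 0.856 became 0.536 under the stricter cell filter and turned to 1.04 with the stricter gate, at 189 CPM, against 182 CPM in the control. B cells had 71.0, 79.4, 62.5 and 68.9 CPM, within the range of T cells. NK cells had 11.3 CPM at 24 h, against 21.2 CPM in control NK cells, from 32 and 42 UMIs, which is 0.533 times (0.325 to 0.864). In NK cells at 12 and 96 h the level was 24.7 and 27.0 CPM, and both intervals of the ratio included 1.

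Itgb7, the chain of the gut-homing receptor α4β7, was higher in monocytes of every pancreatitis library. Their levels were 186, 269, 247 and 310 CPM at 0 (control), 12, 24 and 96 h, with ratios of 1.45 (1.38 to 1.52), 1.33 (1.27 to 1.39) and 1.67 (1.59 to 1.76). Under the stricter cell filter they had 299, 198 and 213 CPM, against 105 CPM in the control, and the ratios of 2.84, 1.88 and 2.02 all passed 1.5-fold. A UMI was found in 55.3%, 62.0% and 63.9% of monocytes at 12, 24 and 96 h, against 41.8% of control monocytes, and after thinning in 32.4%, 31.5% and 36.9%, against 24.7%. T cells had 102, 145, 110 and 108 CPM, with 1.42 (1.32 to 1.52) at 12 h, and B cells 61.0, 61.6, 69.9 and 67.4 CPM. In T cells the intervals at 24 h (0.999 to 1.15) and 96 h (0.993 to 1.12) include 1, as do those of B cells at 12 h (0.903 to 1.13) and 96 h (0.998 to 1.22). The B cell ratio at 12 h, 1.01, was below 1 under median-of-ratios scaling, with doublets kept, with no cell filter and with each cell weighted alike. The stricter cell filter gave T cell ratios of 1.004, 0.824 (0.569 to 1.22) and 0.689 (0.497 to 0.980) in order of time, and thus levels below the control at 24 and 96 h. Of the 4 classes with a ratio, monocytes lay above T cells, T cells above B cells and B cells above NK cells. Their ranges over the libraries did not overlap. Under the stricter cell filter, with 34 to 159 B cells, T and B cells overlapped. Control monocytes, at 105 CPM, then lay below control T cells (143 CPM) and control B cells (120 CPM).

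Itga6, the laminin-binding α6 chain, was highest in T cells in every library. T cells had 21.2, 25.5, 29.8 and 21.1 CPM at 0 (control), 12, 24 and 96 h, and 1.41 times the control at 24 h (1.22 to 1.63). B cells had 7.79, 9.17, 9.57 and 9.24 CPM and monocytes 5.98, 11.5, 7.57 and 9.29 CPM, ranges that overlap. In monocytes this gave 1.93 (1.49 to 2.50) at 12 h and 1.55 (1.16 to 2.09) at 96 h, from 214 and 107 UMIs, against 86 UMIs in control cells, and with no cell filter the 96 h ratio was 1.49. The stricter cell filter gave 6.51 (1.73 to 55.0) at 12 h in monocytes, from 61 UMIs at 12 h and 2 in the control, and 0.469 in T cells at 96 h, where the ratio was otherwise 0.994. With the stricter gate Itga6 in B cells at 12 h was 1.77 times the control in place of 1.18. NK cells held 0, 5, 2 and 4 UMIs, and 0 UMIs in control NK cells allow a level of up to 1.51 CPM.

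The balance among the 3 β chains does not depend on how a class is scaled. With the cells kept here it separated the classes, but under the stricter cell filter, with 34 to 159 B cells, T and B cells overlapped. Itgb2 in B cells, at 70.5 to 84.6 CPM, then lay below Itgb7, at 119 to 146 CPM, in every library. With the cells kept here it lay above Itgb7 in B cells of every library. The shares that follow are for the cells kept here unless the filter is named. Itgb2 held 81.9% to 86.1% of the β chain UMIs in NK cells, 55.5% to 58.9% in monocytes and 23.8% to 36.9% in T cells, and in B cells at most 45.9%. In T cells at 12 h Itgb1 held 47.1%, Itgb2 23.8% and Itgb7 29.0%, against 33.9%, 34.1% and 32.0% in control T cells, and at 96 h the shares of 35.2%, 33.2% and 31.7% were close to the control ones. Under the stricter cell filter Itgb1 held 42.4% in T cells at 12 h and 37.3% in control T cells. In monocytes the Itgb7 share was 15.7%, 15.2% and 18.8% at 12, 24 and 96 h, against 9.70% in control monocytes, and that of Itgb1 was 27.2%, 27.8% and 25.7%, against 31.4%. The stricter cell filter gave Itgb7 shares of 20.7%, 10.1% and 10.2%, against 4.54%.

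**Figure D3:**
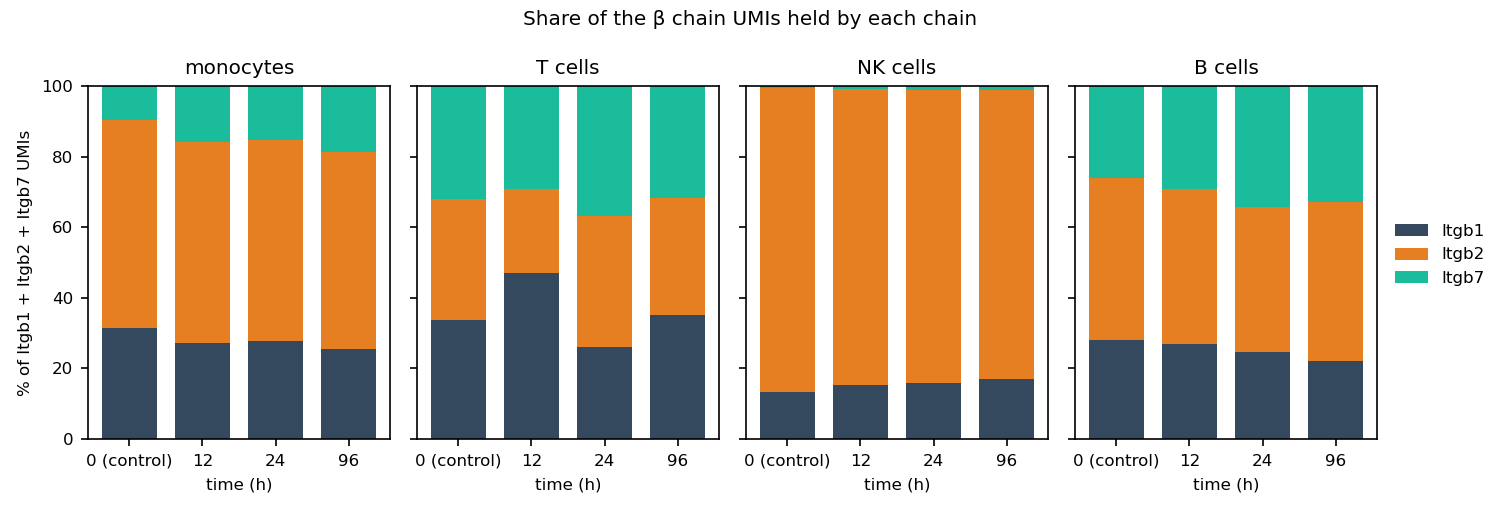
Share of the summed Itgb1, Itgb2 and Itgb7 UMIs held by each chain, in percent, by class and time, 1 library per bar. Itgb2 fills at least 81.9% of the bar in NK cells, Itgb1 reaches 47.1% in T cells at 12 h, and the Itgb7 part of monocytes is smallest in the control library, 9.70%.

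Blood monocytes are a mixture of classical cells, rich in Fn1 and Vcan, and patrolling cells, poor in both, and their mix differed between libraries. Cells with at least 5 UMIs of Fn1 and Vcan together made up 33.0%, 45.2% and 40.9% of monocytes at 12, 24 and 96 h, against 17.4% of control monocytes. Monocytes also differed in depth, with medians of 4177, 6234 and 5348 UMIs at 12, 24 and 96 h, against 3805 UMIs in the control. After thinning to 2000 UMIs, cells with at least 5 such UMIs were 17.9%, 28.4% and 29.8%, against 10.8%, and those with at least 2 were 37.8%, 45.6% and 42.4%, against 21.8%. Between 131 and 589 monocytes of a library had 3 to 7 such UMIs and lie near this limit, which was set after the data were seen, since a single such UMI was found in 10.1% to 23.6% of T and B cells. Fn1 and Vcan were also among the monocyte gate's markers.

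The members split by this division in every library. Itgb7 was 426 CPM in the Fn1 and Vcan high cells at 96 h and 332 CPM in those of the control, against 163 and 128 CPM in the low cells. Itga6 was likewise higher in the high cells, at 15.6 CPM in the control library against 2.22 CPM in its low cells. The other 5 members ran the other way. Itgax was 20.3 CPM in high cells of the control library and 123 CPM in its low cells, Itgb1 252 and 736 CPM, Itgb2 557 and 1350 CPM, Itga4 84.2 and 223 CPM, and Itgal 27.2 and 72.9 CPM.

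Within the low cells Itgb1, Itgb2 and Itga4 lay near the control, while Itgb7 and Itga6 were higher and Itgax lower. Itgb1 there was 0.907, 0.968 and 0.958 times the control at 12, 24 and 96 h, Itgb2 0.982, 1.01 and 1.07 times, and Itga4 1.01, 0.922 and 1.02 times. Itgb7 was 1.47 (1.36 to 1.58), 1.15 (1.07 to 1.23) and 1.27 (1.16 to 1.39) times the control in the low cells, and Itga6 2.11 (1.24 to 3.67) times at 12 h. Itgax in the low cells was 91.2, 82.8 and 107 CPM, against 123 CPM in control low cells, which is 0.741 (0.678 to 0.809), 0.673 (0.618 to 0.732) and 0.867 (0.783 to 0.960). In the high cells Itgax was 1.22 (0.949 to 1.59), 1.29 (1.02 to 1.65) and 0.877 (0.655 to 1.18) times the control. The direction at 12 and 24 h depended on the limit, since with the cells split at 2 UMIs after thinning, a limit also set after the data were seen, Itgax in the high cells was 0.837, 0.761 and 0.558 times the control. With both kinds of cell weighted as in the control library, Itgax in all monocytes came to 0.770, 0.710 and 0.868 times the control, Itgb1 to 0.929, 0.994 and 0.940, Itgb7 to 1.25, 1.03 and 1.28, and Itga6 to 1.40, 0.920 and 1.04. No member then passed the 1.5-fold mark, whereas with the split made after thinning Itgax at 24 h (0.657) and Itga6 at 12 h (1.65) did. Summed neutrophil markers, mostly S100a8 and S100a9, which monocytes also make, stood at 11438, 1720 and 672 CPM in monocytes at 12, 24 and 96 h, against 232 CPM in control monocytes, and their part in these ratios was not tested.

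**Figure D4:**
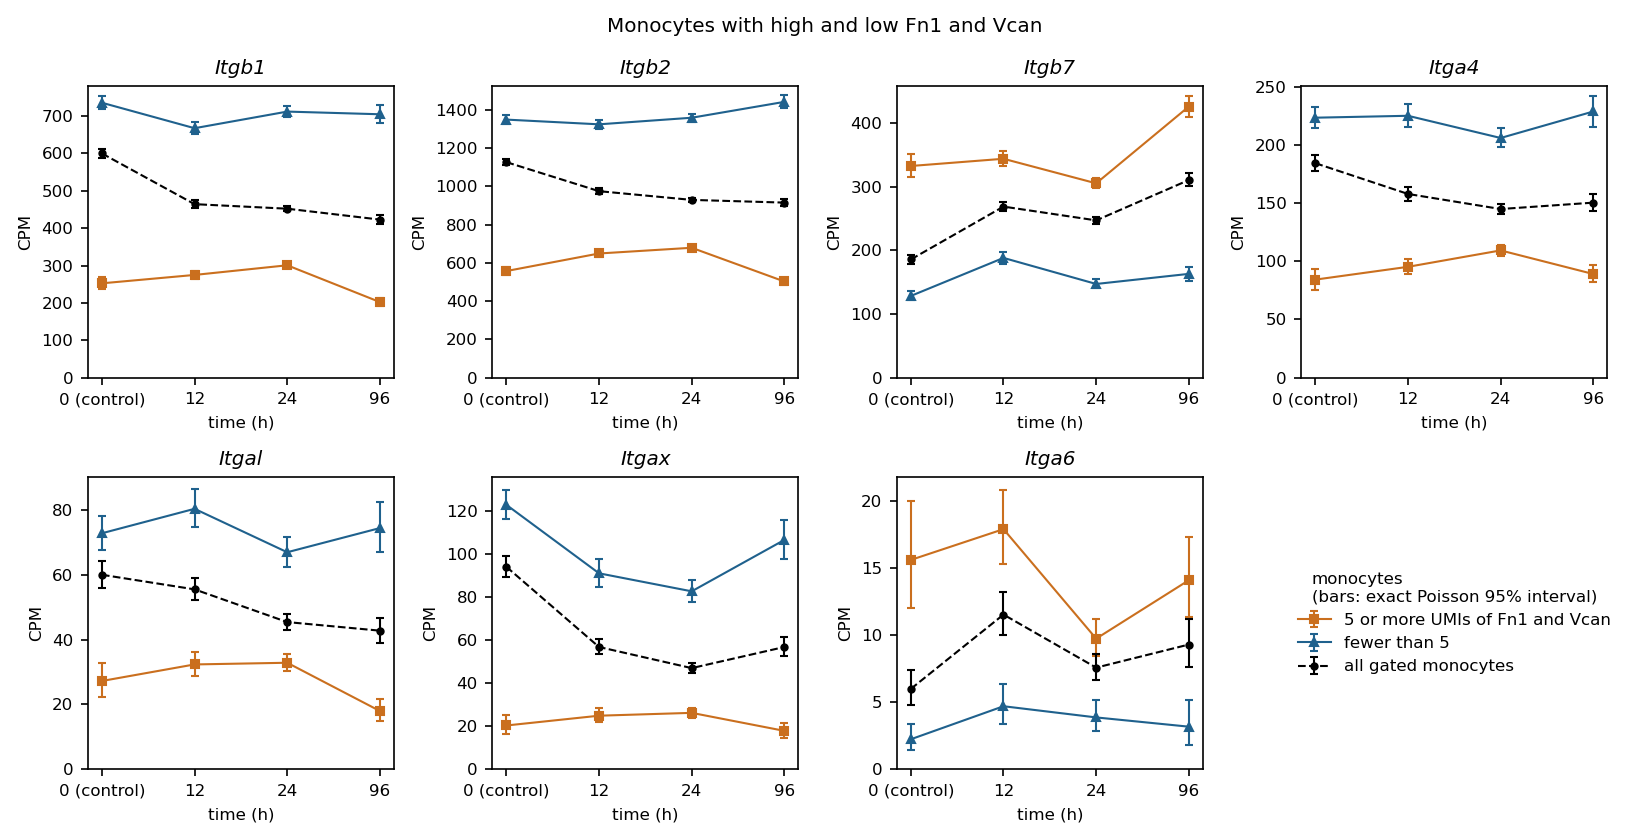
CPM of each member in monocytes with at least 5 UMIs of Fn1 and Vcan together, in those with fewer, and in all gated monocytes, against time, with exact Poisson 95% intervals. The curves of the first and second kind of cell stay apart at all times, and the curve of all monocytes lies between them; Itgb1 spans 423 to 600 CPM over the libraries in all monocytes and 668 to 736 CPM in the low cells.

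In T cells the 12 h difference in Itgb1 lay both in more cells with the transcript and in more UMIs per cell. After thinning to 2000 UMIs, 11.4% of T cells held 1 UMI and 9.80% held 2 or more at 12 h, against 7.90% and 3.69% of control T cells. At 24 and 96 h, 3.22% and 4.07% held 2 or more. Unthinned, a UMI of Itgb1 was found in 35.1% of T cells at 12 h and in 20.9% of control T cells.

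Cytotoxic T cells, with at least 5 UMIs of the chemokine gene Ccl5 and the granule gene Nkg7 together, were 9.43%, 2.75% and 3.42% of T cells at 12, 24 and 96 h, against 1.68% of control T cells, and after thinning to 2000 UMIs 7.49%, 1.31% and 2.25%, against 1.19%. Between 30 and 123 T cells of a library had 3 to 7 such UMIs, near this limit, which was likewise set after the data were seen. The Itgb1 of the cytotoxic cells was 337, 131 and 320 CPM at 12, 24 and 96 h, against 308 CPM in the control, from 180, 61 and 184 cells, against 50 cells. Itgax was 25.1 CPM in them at 12 h and 1.08 CPM in the other T cells, from 38 and 11 UMIs. Itga6 was the reverse, at 5.29 CPM in the cytotoxic cells at 12 h and 28.5 CPM in the others. The remaining T cells had 220 CPM of Itgb1 at 12 h and 103 CPM in the control, a ratio of 2.14 (2.01 to 2.29) beside 2.18 in all T cells. Their Itgb7 was 1.45 times the control (1.35 to 1.56) and their Itga4 1.33 times (1.22 to 1.45).

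T cells with at least 3 UMIs of Itgb1, 15.8% of T cells at 12 h and 5.83% of control T cells, differed from those with none in other adhesion genes. Itgb7 was 247 CPM in them at 12 h and 111 CPM in T cells without a UMI of Itgb1, and 261 against 83.7 CPM in the control library. Cd44, the hyaluronan receptor of memory cells, was 276 against 104 CPM at 12 h. The same orders held in each library, and the cells with Itgb1 were the deeper ones, at medians of 7355.5 against 5427 UMIs at 12 h. Summed erythroid markers were 102 CPM in T cells at 12 h, against 48.4 CPM in the control, and platelet markers 8.15 against 4.18 CPM. With platelet-bearing cells kept the Itgb1 ratio was again 2.18. Only 45 such cells of all classes had been removed at 12 h and 21 in the control, so this ratio could hardly change. The part of the erythroid and platelet RNA in the T cells was not tested.

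**Figure D5:**
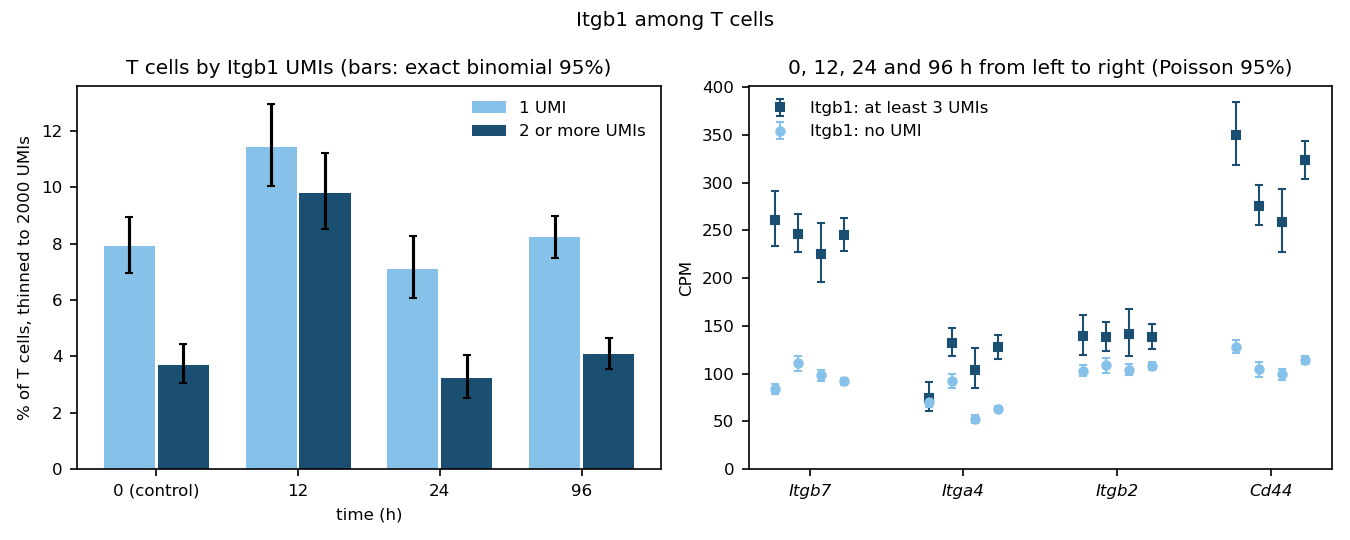
Left, percent of T cells with 1 and with 2 or more UMIs of Itgb1 after thinning to 2000 UMIs, by time, with exact binomial 95% intervals; right, CPM of other adhesion genes in T cells with at least 3 and with no UMI of Itgb1, with exact Poisson 95% intervals. The 12 h library has the tallest bars of both kinds (11.4% and 9.80%), and cells with Itgb1 hold more Itgb7 and Cd44 in all 4 libraries.

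Neutrophils gave a coarse picture, from 8, 32, 123 and 9 UMIs of Itgb2 in 17, 49, 107 and 9 cells at 0 (control), 12, 24 and 96 h. Their Itgb2 was 494 CPM (410 to 589) at 24 h, the best covered library, and 317 CPM (137 to 625) in the control. Itgb7 was 341 CPM (236 to 476) at 12 h and 325 CPM (258 to 404) at 24 h, above the 145 and 110 CPM of T cells. The 24 h level also lay above the 247 CPM (241 to 252) of monocytes, while at 12 h the intervals of neutrophils and monocytes (269 CPM, 261 to 276) overlap. Under the stricter cell filter 24 neutrophils at 24 h had 197 CPM, beside 198 CPM in monocytes. Itgb1 had 3 UMIs at 12 h and 7 at 24 h, and 28.1 CPM (11.3 to 57.9) at 24 h, far under the 452 CPM of monocytes. Itga4 was at 0 UMIs in 3 of the 4 libraries, and 0 UMIs at 12 h allow up to 30.1 CPM.

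The lists of other genes of integrin biology were read over the same 12 comparisons, with the shares of all genes given above as their background. Of the other subunits listed, 16 are among the gene rows, and 10 of 45 ratios with enough UMIs passed 1.5-fold, 6 higher and 4 lower. Itga5, the fibronectin receptor chain, was 30.4 and 27.1 CPM in monocytes at 24 and 96 h, against 16.7 CPM in control monocytes, which is 1.82 and 1.62 times. Itgb5 had 8.51 CPM in monocytes at 12 h, against 2.43 CPM in the control, 3.50 times (2.41 to 5.20), and 0.518 times the control at 24 h. Itgae, whose αE chain pairs with β7 on cells that stay in epithelia, was 14.0 CPM in B cells at 12 h, against 8.29 CPM in the control. The median log2 ratio of the list in monocytes was 0.26, -0.08 and -0.11 at 12, 24 and 96 h. Itga1 and Itga2, the collagen receptor chains, were highest in NK cells, at 17.6 to 20.7 and 6.99 to 13.6 CPM, with 1.63 CPM or less in every other class with a ratio.

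Genes that activate integrins from inside, such as the talins, kindlins and Rap1, passed 1.5-fold in 11 of 189 ratios, 3 higher and 8 lower. Their median log2 ratio in monocytes was -0.01, -0.25 and -0.15 at 12, 24 and 96 h, against 0.05, -0.12 and -0.03 over all genes. Itgb1bp1, which binds the tail of β1 and holds it inactive, was 31.6 CPM in T cells at 12 h, against 20.9 CPM in the control, 1.52 times (1.30 to 1.76). Skap1, an adaptor of T cells, was 1.83 times the control in NK cells at 96 h, with 110 against 60.0 CPM. In monocytes Skap1 was 0.387 and 0.354 times the control at 12 and 24 h, at 1.72 and 1.58 CPM, against 4.45 CPM. Summed T cell markers in those monocytes were also lower, at 16.2 and 12.9 CPM, against 33.3 CPM, and their part was not tested. Fyb1, an adaptor that binds Skap1, was 14.8 CPM in B cells at 12 h, against 33.6 CPM in the control, beside summed T cell markers of 60.5 CPM, against 100 CPM, whose part was not tested.

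The adaptors that join integrins to actin passed in 7 of 125 ratios, 6 of them higher, with a median log2 ratio in monocytes of 0.21, 0.02 and -0.05 at 12, 24 and 96 h. Actn1, an actin crosslinker, was 8.08 CPM in monocytes at 12 h, against 1.95 CPM in the control, 4.15 times (2.76 to 6.45), and Parvg, a parvin of blood cells, 1.65 times. Vcl, the vinculin gene, was 1.61 times the control in T cells at 12 h and 0.569 times in NK cells at 96 h. The kinases and adaptors that signal from bound integrins passed in 7 of 154 ratios, all lower, with medians in monocytes of -0.13, -0.20 and -0.15.

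Ligands passed in 15 of 59 ratios, 10 higher and 5 lower, with medians in monocytes of 0.04, 0.35 and -0.29 on the log2 scale. Fn1, the fibronectin that α4β1 and α5β1 bind and a marker of the monocyte gate, was 2003 and 2041 CPM in monocytes at 24 and 96 h, against 943 CPM in the control. Of the 10 higher ratios 3 were Fn1 in T, NK and B cells at 24 h, at 34.3, 33.5 and 59.6 CPM, against 21.0, 21.7 and 31.8 CPM in the control. Those 24 h levels were 1.71%, 1.67% and 2.98% of the monocyte level, beside 1.56%, 1.74% and 2.97% for Lyz2 in the same cells. The part of free RNA in these Fn1 ratios was not tested. The lower ratios included C3 in T cells at 12 and 96 h, at 2.14 and 2.68 CPM, against 4.81 CPM in the control. They also included C3 in B cells at these times, at 5.99 and 4.11 CPM, against 10.8 CPM. Control monocytes had 282 CPM of C3, and the part of free RNA in these ratios was not tested. Icam1, the ligand of LFA-1, was 51.1 CPM in monocytes at 12 h, against 88.4 CPM, 0.578 times (0.530 to 0.629). In T cells Icam1 was 1.60 times the control at 12 h and 1.68 times at 24 h, at 4.97 and 5.21 CPM, against 3.10 CPM. Thbs1, for thrombospondin, was 3.87 times the control in monocytes at 12 h, from 85 UMIs at 12 h and 17 in the control.

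Other adhesion partners passed in 15 of 94 ratios, 12 higher and 3 lower, with medians in monocytes of -0.12, 0.02 and 0.02 on the log2 scale. Cd63, a tetraspanin of granules and endosomes, was 64.7, 118 and 51.7 CPM in monocytes at 12, 24 and 96 h, against 30.5 CPM, with 3.87 times (3.50 to 4.28) at 24 h. Cd9, another tetraspanin that binds β1 integrins, was 0.562 times the control in monocytes at 96 h and 1.69 times in T cells at 12 h.

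Likeness was measured as the Pearson r of log2(CPM + 1) over 17 points of class and library, which share libraries and lineages, so r describes mainly which class is high. Among the members, r was highest for Itgb2 with Itgax (r = 0.95) and with Itgal (r = 0.93), and Itga4 was most like Itga6 (r = 0.74) and Itgb7 (r = 0.71). Itgb2 with Itgb7 gave r = -0.02. Among 6661 genes, those most like Itgb2 were Ywhab, Chst12 and AABR07029581.1, each at r = 0.98. Those most like Itgax were Rap1gap2, Bcl2a1 and Efhd2 (r = 0.99, 0.98 and 0.98), and those most like Itgb7 were Il6r, Aldh2 and Gna15 (r = 0.97, 0.96 and 0.94). For Itgb1 they were Slc25a5, Eno3 and Prdx6 (r = 0.95, 0.95 and 0.94), for Itga4 Zc3h12d, Shisa5 and Dse (r = 0.97, 0.97 and 0.94), for Itgal Capn2, Slc39a8 and Ldha (r = 0.96, 0.95 and 0.95), and for Itga6 Tmem42, Tpmt and Glo1 (r = 0.92, 0.92 and 0.91).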

How the data were processed

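The deposited matrices hold UMI counts per gene and cell, not normalized, and the submitters' processing notes name Cell Ranger, Seurat and mm10, whose versions the sources used here do not give. The members and the gene lists were chosen with earlier results of these data known. A cell had to show 200 genes or more, with mitochondrial RNA at 10% of UMIs or less. Scrublet (scanpy 1.11.5) doublets, 3.77% to 5.35% of a library's deposited cells, were removed, as were cells with at least 2 platelet markers (21 to 49 per library). Gates asked for at least 3 detected T markers, 5 NK, 2 B or 3 monocyte markers, or 2 neutrophil markers with S100a8 and S100a9 at 5% or more of UMIs. Cells with markers of another lineage (over 1 T, B or neutrophil, over 2 NK or monocyte, over 2 neutrophil in monocytes; NK markers were allowed in T cells) or passing 2 gates stayed unassigned. These limits were set after the markers were seen, but not on integrin values, and Lyz2, S100a8 and S100a9, found in every lineage, were not counted as markers.

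UMIs were summed per class and library and divided by the class total. Ratios have exact conditional binomial intervals, levels exact Poisson and shares exact binomial (Clopper-Pearson) intervals, at 95%. Classes with at least 50 cells in both libraries were compared. A level at 0 is limited by 3 counts. Genes named from the lists had the largest or smallest ratio of a list in a comparison; Itga1, Itga2, Itgad, Parvg in monocytes and Cd63 in monocytes at 12 and 96 h were chosen after their values were seen. Some list genes that the rule names are not reported here. Genes like a member are the 3 with the highest r among genes reaching 20 CPM. The intervals of ratios were tested only on simulated class sums drawn as Poisson counts, with no spread between cells, mice or libraries. How they do under such spread was therefore not tested. Software was python 3.11.15, numpy 2.4.6, scipy 1.17.1, pandas 2.3.3 and matplotlib 3.10.9.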

Additional observations from a re-analysis of the deposited data

Results flagged for a closer look

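Itgb1 at 12 h lay on opposite sides of the control in T cells and in monocytes: its level was 2.18 times the control in T cells and 0.774 times in monocytes, so that the first ratio was 2.81 times the second. The same held for T cells against B cells, where the ratio was 0.870 and the quotient 2.50, but with the stricter gate the B cell ratio was 1.10, on the same side as that of T cells. Under the stricter cell filter the T cell ratio was 1.25 (0.910 to 1.75), an interval that includes 1, and the monocyte ratio 0.507. With Fn1 and Vcan high and low monocytes weighted as in the control library, the monocyte ratio was 0.929. With 1 library per time the difference between classes was not tested.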

How the results depend on the processing

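The number of member and class pairs at least 1.5-fold from the control was 4 of 26 at 12 h, 2 of 26 at 24 h and 5 of 26 at 96 h. The shares over all genes are given above by class for these settings, and not for the alternatives. At 24 h the number was 4 of 23 pairs with the stricter gate and 1 of 22 when at least 100 UMIs were asked. At 96 h it was 3 of 22 with the stricter gate. Fewer pairs were thus measured in these settings, and the cause of the different numbers was not tested. Over 8 alternatives of filter, doublets, gate, platelets and scaling, 483 of 570 ratios stayed within the interval of the reported ratio, 87 moved out of it and 0 of the called ratios changed sides. The stricter cell filter, which leaves 572 control cells, moved 25 of its 33 ratios, 10 of them by over 1.5 times. In monocytes with at least 5 UMIs of Fn1 and Vcan, a choice made after the data were seen, Itgax was 1.22 and 1.29 times the control at 12 and 24 h and Itga6 0.903 times at 96 h, the other side of the control from all monocytes. Median-of-ratios scaling shifted log2 ratios by 0.15 in monocytes at 24 h and by -0.11 and 0.12 in T cells at 12 and 24 h. Thinned shares are lower than plain ones by construction. No paired analysis was possible because each group has 1 library, and no replicate could be left out. Depth limits Itgax in lymphocytes and Itga6 in NK cells.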
